A study of Mus musculus with 2 samples.

Results

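The cytochrome b561 family genes Cyb561, Cyb561a3, Cyb561d1 and Cyb561d2 were examined transcript by transcript in mouse adrenal gland. They were 4 of the 18168 annotated mouse genes with a read, a number that excludes spike-in RNAs, and they held 40 of 104489 transcript models in replicate 1 and 54 of 140263 in replicate 2. The genes were taken by name. The emphasis on Cyb561 was chosen by its read counts in these same libraries, in which its leading splice chain was absent from the reference annotation, so those counts are given as a description. Long-read RNA sequencing, which reads a cDNA copy of an RNA as a single molecule, had been applied to total RNA of adrenal glands from male mice of the hybrid strain B6CASTF1/J at an age of 25 days. Both libraries, replicates 1 and 2, belong to this 1 group, and no treatment or control was given. The labels agree on 1 donor record and 1 animal in the text on each library, but number the animals differently in the text on each tissue. Hence the spread between libraries, and every p-value, may be technical.

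Proteins of the cytochrome b561 family span a membrane several times and hold haem groups that carry electrons across it, usually with ascorbate (vitamin C) as the donor. In adrenal chromaffin cells, CYB561 sits in the membrane of the granules that store catecholamines. It passes electrons inward to restore the ascorbate that dopamine β-hydroxylase (Dbh) and the peptide-amidating enzyme Pam oxidise inside the granule. CYB561A3 is known as a ferric reductase of late endosomes and lysosomes. CYB561D1 and CYB561D2 are more distant members of the family whose roles are less well described.

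Replicate 1 held 793999 reads, of which 752432 lay in annotated mouse genes, and replicate 2 held 1290342 and 1210671. Levels are given in CPM, counts scaled to 1000000 reads in genes. A single read was worth 1.33 CPM in the first library and 0.826 in the second. The floor of 3 reads, taken here as what a count of 0 allows, was worth 3.99 and 2.48. The upper Poisson bound of a count of 0 was higher, at 4.90 and 3.05 CPM. Intervals are 95% intervals (Poisson for levels, Clopper-Pearson for shares) and cover counting error only. The libraries stood apart in transcripts of other tissues. All 6 liver markers were higher in replicate 2, with a summed level of 5.32 CPM in replicate 1 and 43821 CPM in replicate 2. All 5 skeletal muscle markers were higher in replicate 1, at 2265 CPM against 0.826 CPM in sum, and 4 of them had no read in replicate 2. Of the 5 cortex markers 4 were lower in replicate 2 and 1, Mc2r, was not called (log2 ratio 0.46). Of the 6 chromaffin markers 5 were lower and 1, Phox2a, was not called, beside 25.3% of all genes tested that were lower in replicate 2. With TMM factors, which set the ratio from the bulk of genes in place of the totals, 2 chromaffin markers (Th and Dbh) were lower, 3 were not called and Chga turned from a log2 ratio of -0.14 to 0.21 and was called higher. Of the cortex markers, 4 were lower by that scaling and Mc2r was called higher (log2 ratio 0.81). Over all 11382 genes tested, TMM factors gave 1563 lower and 2015 higher in replicate 2. All 11 of these cortex and chromaffin genes had reads in both libraries. None of the 5 macrophage markers was called, beside 36.8% of all genes tested that were called in either direction.

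The finding that the sequences below carry is where Cyb561 transcripts enter the first coding exon. Each line gives the last bases of the upstream exon in lower case and, in capitals, the start of the exon that follows. In the upper pair those capitals end with the start codon ATG. The third line is the junction of a chain of 7 exons that uses both upstream exons. Bases were read from the GENCODE M21 transcripts, build GRCm38 (mm10), minus strand of chromosome 11.
Cyb561-201, distal exon to coding exon: ggcggcgggacaagCTGGGGTCTCAGAATG
leading chain, inner exon to coding exon: cagaacccaagaggCTGGGGTCTCAGAATG
chain of 7 exons, distal exon to inner exon: ggcggcgggacaagGAGGTCTGAAGAAG

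Cyb561 was the most abundant of the 4 genes in both libraries. It lies at chr11:105933702-105953336 on the minus strand (ENSMUSG00000019590.16), and had 419 reads in replicate 1 and 459 in replicate 2. These corresponded to 557 CPM (505 to 613) and 379 CPM (345 to 415), a mean of 468 ± 126 CPM (SD, n = 2). By reads it ranked 226 among the genes of replicate 1 and 366 among those of replicate 2. The lysosomal member Cyb561a3 (chr19:10577172-10595961, plus strand, ENSMUSG00000034445.8) had 42 and 63 reads, or 55.8 CPM (40.2 to 75.5) and 52.0 CPM (40.0 to 66.6). Cyb561d2 (chr9:107539007-107542193, minus strand, ENSMUSG00000037190.12) had 21 and 31 reads, or 27.9 CPM (17.3 to 42.7) and 25.6 CPM (17.4 to 36.3). Cyb561d1 (chr3:108195687-108201212, minus strand, ENSMUSG00000048796.7) had 8 and 7 reads, or 10.6 CPM (4.59 to 20.9) and 5.78 CPM (2.32 to 11.9). Cyb561 thus supplied 85.5% of the family's reads in replicate 1 and 82.0% in replicate 2.

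**Figure D1:**
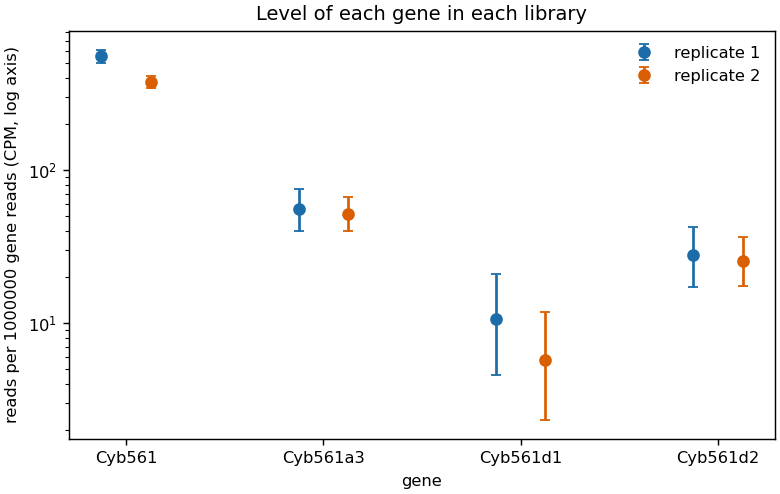
Level of the 4 genes in each library, in reads per 1000000 gene reads on a log axis, with points for the libraries and bars for 95% Poisson intervals. Cyb561 lay at 557 and 379 CPM, above the other 3 genes in both libraries, and it is the gene whose intervals did not overlap between libraries. Over all 11382 genes tested, 36.8% were called different between the libraries, and the call of Cyb561 was lost with TMM factors.

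A long read stands for a molecule whatever its length, but levels were also divided by the mean length of each gene's models so that genes could be compared on a length scale. On that scale of CPM per kb, Cyb561 stood at 210 and 156. Cyb561a3 had 26.8 CPM per kb (upper bound 36.2) in replicate 1 and 24.6 (18.9 to 31.5) in replicate 2. Cyb561d2 had 23.4 (upper bound 35.8) and 22.0 (15.0 to 31.3), so these neighbours in the order did not differ beyond counting error on that scale. Cyb561d1 was lowest on both scales, with 4.02 and 1.28 CPM per kb.

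Between the libraries, Cyb561 was the 1 gene of the 4 that was called. Its log2 ratio of replicate 2 to replicate 1 was -0.55 (counting SE 0.10, adjusted p = 1.63e-07 by Fisher's exact test with Benjamini-Hochberg adjustment over all genes tested). That count stands beside 36.8% of the 11382 genes tested that were called in either direction, and the 25.3% that were lower. The median log2 ratio over all genes tested was -0.34, so Cyb561 lay -0.22 from that median. The call was lost with TMM factors, where the log2 ratio was -0.21 and the adjusted p 0.0957, and with DESeq2 size factors (-0.15, adjusted p = 0.263). Scaling without the genes that differed over 10-fold gave -0.20 and an adjusted p of 0.117. Counting known transcripts alone made the ratio more negative, at -0.95 with an adjusted p of 0.00174 by Fisher's exact test. That value rests on 65 and 53 reads and leaves out the gene's leading splice chain. The part of the liver and muscle transcripts in the difference was not tested beyond that rescaling. In such bulk tissue, fewer chromaffin cells and less RNA per cell cannot be told apart.

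The other 3 genes were not called by the same test. Log2 ratios were -0.11 (SE 0.29, adjusted p = 0.867) for Cyb561a3 and -0.14 (SE 0.40, adjusted p = 0.875) for Cyb561d2, and both turned positive with TMM factors (0.24 and 0.21). For Cyb561d1 the ratio was -0.87 with an SE of 0.72 (adjusted p = 0.439). At these depths a difference of the size seen for Cyb561 could have been missed in the 3 genes, given SEs of 0.29 to 0.72 against 0.10.

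Transcripts fall into classes set by the authors' software against the GENCODE M21 annotation. A Known model has the splice chain of an annotated transcript, and an incomplete splice match (ISM) holds a part of one. An NIC model joins annotated splice sites in a chain outside the annotation, and an NNC model has at least 1 splice site that is not annotated. A Genomic model here has a single exon that overlaps the gene without matching a transcript.

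The Cyb561 locus was read mainly as NIC models. NIC models held 63.2% (58.4 to 67.9) of its reads in replicate 1 and 62.1% (57.5 to 66.5) in replicate 2, where all genes together had 5.66% and 4.27%. Known models held 15.5% and 11.5% of Cyb561 reads, against 77.0% and 75.6% over all genes. NNC models held 12.9% and 10.9%, and ISM models 4.06% and 4.36%. Among the 1407 genes that reached 100 reads in both, Cyb561 ranked 16 by NIC share in both, and the median gene had 1.40% and 1.29%. These shares chose the gene for a closer description, and their height carries no test. Genomic models held 18 reads, 4.30% (2.57 to 6.70), in replicate 1 and 51 reads, 11.1% (8.39 to 14.3), in replicate 2, and these intervals did not overlap. Over all genes that class took 3.78% and 4.998%.

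**Figure D2:**
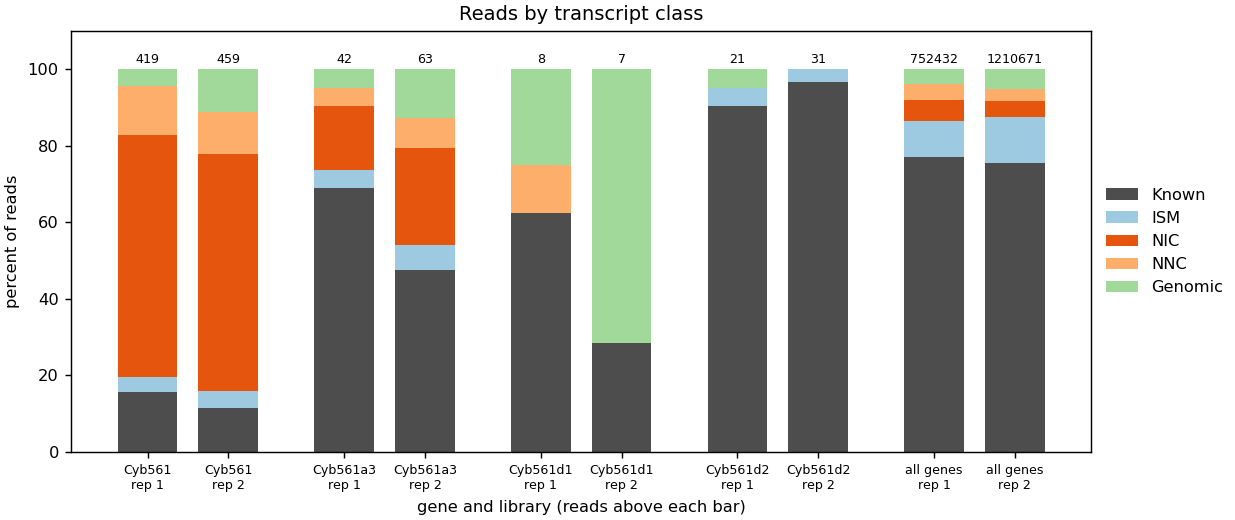
Percent of reads in each transcript class for the 4 genes and for all genes, with a bar for each library and its reads above it. NIC models made up 63.2% and 62.1% of Cyb561 reads, while Known models led in Cyb561d2 with 90.5% and 96.8%.

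A single NIC chain of 6 exons carried most of this. It had 224 of 419 reads in replicate 1, a share of 53.5% (48.6 to 58.3), and 242 of 459 in replicate 2, or 52.7% (48.0 to 57.4). The mean share was 53.1 ± 0.521% (SD, n = 2). By reads it ranked 5 among 18892 NIC chains of replicate 1 and 11 among 20238 of replicate 2. As the leading chain of the gene, its share differed by -0.74 percentage points between libraries (adjusted p = 0.986 by Fisher's exact test with Benjamini-Hochberg adjustment). That comparison concerns the 2 libraries only and does not show that the shares were equal, and the height of the share is a description. Of the 5612 genes tested in this way, 12.7% were called. In 90.4% of those genes the leading chain was an annotated one, and in 2.62% it was an NIC chain.

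Exon by exon, the chain departs from the annotated transcript Cyb561-201 at its 5′ end alone. Its first exon ends at 105940100. The model begins at 105940378 in replicate 1, which makes the exon 279 bases long, and at 105940164 in replicate 2, which makes it 65. Both positions are annotated acceptors, where Cyb561-204 (105940378) and Cyb561-207 (105940164) splice into the inner exon. With 1 start per model and a different one in each library, the start of single reads is not resolved. The exon lengths of 279 and 65 bases are therefore those of the models. An intron of 2259 bases leads to the second exon, at chr11:105937629-105937840 (212 bases), in which the start codon follows 13 noncoding bases. The third exon, chr11:105936555-105936653 (99 bases), and the fourth, chr11:105936182-105936285 (104 bases), are wholly coding. The fifth exon, chr11:105935752-105935909, adds 158 coding bases. The last exon, chr11:105933702-105935567, has 1866 bases, of which 193 are coding with the stop codon and 1673 are 3′ untranslated.

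All 5 introns of the chain are annotated, but no annotated transcript holds them together. Cyb561-201 shares 4 of them and differs in the intron before the coding start. That first intron is found in Cyb561-204 and Cyb561-207, which share 2 and 3 of the introns. In both, the inner exon is an internal exon behind a distal one, both are incomplete in their coding sequence, and neither had a read in either library. The chain therefore holds the whole coding region of Cyb561-201 (750 bases, 250 codons, CCDS25542.1), and its difference lies in the 5′ untranslated region shown in the upper pair of junction sequences. The distal first exon of Cyb561-201, chr11:105944111-105944412, is 302 bases long with a GC content of 76.5% and 52 CG dinucleotides. The inner exon has a GC content of 52.0% and 6 CG dinucleotides over the 279 bases of the longer model. The distal exon holds 1 ATG and the inner exon 2, and the 65 bases of the shorter model hold 0.

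**Figure D3:**
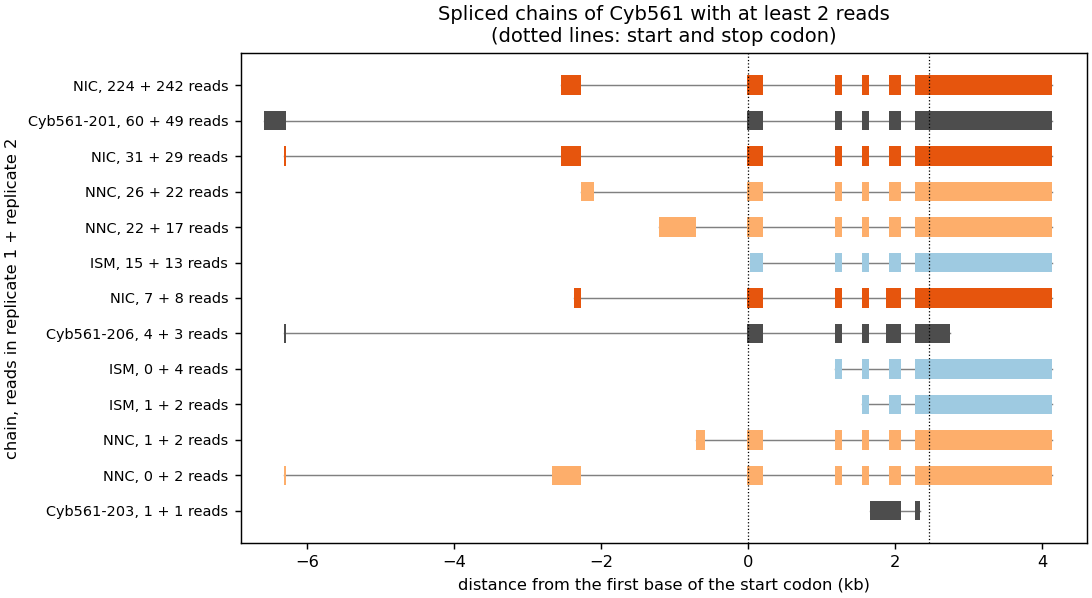
Exons (boxes) of the spliced Cyb561 chains with at least 2 reads over both libraries, placed by distance in kb from the start codon, with model ends as in replicate 1 where it has the chain. The top chain, with 224 and 242 reads, begins at the inner exon, and the coding exons are shared with Cyb561-201 (60 and 49 reads).

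Splice junctions gave the choice of upstream exon for all reads that entered the first coding exon, 384 in replicate 1 and 383 in replicate 2. The inner exon supplied 266 of them, 69.3% (64.4 to 73.9), in replicate 1 and 284, 74.2% (69.5 to 78.5), in replicate 2. The distal exon of Cyb561-201 was joined directly in 65 reads, 16.9% (13.3 to 21.1), and 53 reads, 13.8% (10.5 to 17.7). The inner exon was the major donor in both libraries, and the intervals of the libraries overlapped for each of these donors. An NNC donor at 105939930 was used by 27 and 23 reads (7.03% and 6.01%), and an NNC donor at 105938538 by 23 and 18 reads (5.99% and 4.70%). Each of the remaining 5 donors had at most 2 reads in a library. No sequence is printed for the NNC donors, whose exons lie outside the annotated transcripts.

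**Figure D4:**
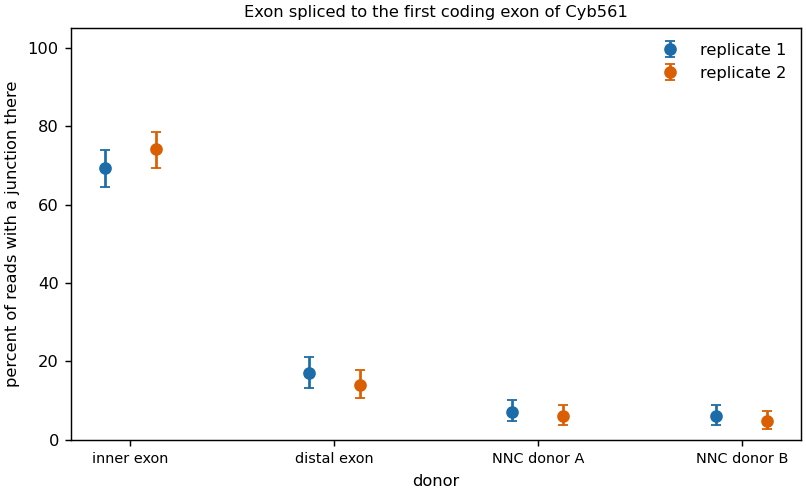
Percent of reads entering the first coding exon of Cyb561 by the 4 leading donors, with points for the libraries and bars for 95% Clopper-Pearson intervals (NNC donor A ends at 105939930, B at 105938538). The inner exon supplied 69.3% and 74.2%, the distal exon 16.9% and 13.8%.

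The inner exon also occurred behind the distal one. A chain of 7 exons, whose distal junction is the last of the sequences shown above, had 31 reads in replicate 1 and 29 in replicate 2. In all, 34 and 31 reads joined the inner exon to the coding exon with a further exon upstream, while 232 (55.4%) and 253 (55.1%) belonged to models that begin in the inner exon. Whether these begin there in the RNA or are copies shortened at the 5′ end cannot be told apart from the deposited models. The distal donor was used by 99 reads, 23.6% (19.6 to 28.0), in replicate 1 and by 85 reads, 18.5% (15.1 to 22.4), in replicate 2. Of these, 65.7% and 62.4% were joined directly to the first coding exon.

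A second, rarer choice changed the coding sequence. The fourth exon of Cyb561 joined the usual acceptor of the fifth at 105935909 in 386 of 400 reads, 96.5%, in replicate 1 and 393 of 406, 96.8%, in replicate 2. An acceptor 44 bases further upstream, at 105935953, was used by 13 reads in each library, 3.25% (1.74 to 5.49) and 3.20% (1.72 to 5.41). The choice is annotated in Cyb561-206, which had 4 and 3 reads. An NIC chain that pairs it with the inner exon had 7 and 8. The added bases end the shared frame after 134 codons, and the annotated reading frame of Cyb561-206 then stops in the fifth exon, at 192 codons in place of 250. The lines below show the coding junction of both, with the fourth exon in lower case and the fifth in capitals.
Cyb561-201, exon 4 to 5: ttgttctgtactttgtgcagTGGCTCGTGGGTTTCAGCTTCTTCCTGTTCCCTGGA
Cyb561-206, exon 4 to 5: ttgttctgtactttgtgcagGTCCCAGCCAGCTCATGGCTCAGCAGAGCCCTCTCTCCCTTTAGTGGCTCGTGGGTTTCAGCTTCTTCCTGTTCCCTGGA

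Despite the varied 5′ ends, most Cyb561 reads belonged to models with a complete annotated coding region. That of Cyb561-201 was whole in 369 reads, 88.1% (84.6 to 91.0), of replicate 1 and 366 reads, 79.7% (75.8 to 83.3), of replicate 2. With the region of Cyb561-206 the counts were 382 and 378, of which 317 and 326 came from NIC or NNC chains. The 3′ end of the model was that of Cyb561-201 for 98.8% and 98.7% of reads. An ISM chain had 15 and 13 reads. Its model begins at 105937798, the annotated 5′ end of Cyb561-205, and so lacks the start codon. Whether its single reads lack the codon is not resolved. Of 7 annotated transcripts 3 had a read, and the third, the short noncoding Cyb561-203, had 1 in each library.

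Chains outside the annotation, here with ISM chains included, were also counted for recurrence. Cyb561 had 33 such multi-exon chains, of which 8 were found in both libraries and 23 had a single read. The 8 recurrent chains held 662 of the 691 reads in the 33, or 95.8%. Over all genes, 16.7% of 123389 such chains were found in both libraries and held 54.6% of their reads, beside 24.2% of the chains for Cyb561. Of the 662 reads, 466 were of the leading chain, whose counts drew the emphasis on Cyb561, so the 95.8% is a description too. The gene Gm9910 overlaps Cyb561 on the other strand and had 0 reads in replicate 1 and 6 in replicate 2. The labels do not say how strand entered the counting, so reads of such overlapping pairs may not be fully separated.

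Cyb561a3 was read as a mixture of 5′ untranslated exons in front of 1 coding region. The annotated Cyb561a3-209 had 11 reads in replicate 1 and 16 in replicate 2, its leading chain share being 26.2% (13.9 to 42.0) and 25.4% (15.3 to 37.9). Cyb561a3-201 had 15 and 10 reads. They differ upstream of the start codon by an exon of 93 bases, chr19:10578982-10579074, which Cyb561a3-209 includes and Cyb561a3-201 skips, and also in their ends. The lines below give these junctions, and that of an NIC chain that leaves a shorter first exon, with the upstream exon in lower case and the downstream exon in capitals.
Cyb561a3-209, long first exon to 93-base exon: agtacttttgaattGTTCCTGTGAAGGC
Cyb561a3-201, long first exon past it: agtacttttgaattAGGACGAGTCTTGC
NIC chain, short first exon past it: gacctgcccccaagAGGACGAGTCTTGC

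Into the exon that precedes the coding start, at 10580463, the 93-base exon was spliced in 15 of 37 reads, 40.5% (24.8 to 57.9), in replicate 1 and 30 of 51, 58.8% (44.2 to 72.4), in replicate 2. The long first exon, ending at 10578083, was joined directly by 15 reads, 40.5%, and 12 reads, 23.5% (12.8 to 37.5). The short first exon, ending at 10577563, was joined by 6 reads, 16.2%, and 8 reads, 15.7%. Intervals overlapped between libraries for each of these donors. The NIC chain with the short exon had 6 reads in each library, ending at 10588753 in the model of replicate 1 and at 10589829 in that of replicate 2. A further NIC chain, from the short exon to the 93-base exon, had 0 and 5 reads. The leading chain share gave an adjusted p of 1 by Fisher's exact test with Benjamini-Hochberg adjustment, which does not show that the shares were equal.

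The coding region of 726 bases (242 codons, CCDS29582.1), shared by Cyb561a3-201, Cyb561a3-207 and Cyb561a3-209, was whole in 39 of 42 reads, 92.9%, in replicate 1 and 44 of 63, 69.8%, in replicate 2. An alternative last exon of Cyb561a3-208, with a reading frame of 257 codons, was complete in 0 and 4 reads. Genomic models had 2 and 8 reads, all in the 3′ part of the gene, where it overlaps Tkfc on the other strand (14 and 60 reads). At its 5′ end it overlaps Tmem138 on the other strand (14 reads in each library). The gene had 17 multi-exon chains outside the annotation, ISM chains included. Of these 1, or 5.88%, was found in both libraries, beside 16.7% over all genes. Of 9 annotated transcripts 5 had a read, among them Cyb561a3-207 with 3 and 2 reads and the decay-tagged Cyb561a3-205 with 0 and 1.

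Cyb561d2 was the gene read most nearly as annotated. Known models held 19 of 21 reads, 90.5% (69.6 to 98.8), in replicate 1 and 30 of 31, 96.8% (83.3 to 99.9), in replicate 2. Cyb561d2-205 led with 17 and 26 reads, 81.0% and 83.9%, and the leading share had an adjusted p of 1 by the same Fisher's exact test. Cyb561d2-201, which starts nearer the coding region, had 1 and 2 reads. No read of either library was NIC or NNC. The 3 reads that a count of 0 allows would be 14.3% and 9.68%, and the upper bounds of the intervals were 16.1% and 11.2%. The coding region (666 bases, 222 codons, CCDS23491.1) was whole in 18 reads, 85.7%, and 28 reads, 90.3%.

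A minor acceptor altered the Cyb561d2 frame. Of the reads leaving the exon that holds the start codon, 18 of 20 in replicate 1 and 28 of 31 in replicate 2 joined the next exon at 107541040. The remaining 2, 10% (1.23 to 31.7), and 3, 9.68% (2.04 to 25.8), joined it 29 bases further upstream, at 107541069. That acceptor belongs to Cyb561d2-204, annotated as a target of nonsense-mediated decay, the pathway that removes RNAs with early stops. Its annotated frame shares 42 whole codons with the usual one and ends at 44 codons in place of 222. The junctions are given with the upstream exon in lower case and the downstream exon in capitals (build GRCm38, chromosome 9, minus strand).
Cyb561d2-205, exon 2 to 3: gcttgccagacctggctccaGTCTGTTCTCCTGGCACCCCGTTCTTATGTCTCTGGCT
Cyb561d2-204, exon 2 to 3: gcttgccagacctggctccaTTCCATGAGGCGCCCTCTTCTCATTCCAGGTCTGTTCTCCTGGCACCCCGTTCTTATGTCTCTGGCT

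**Figure D5:**
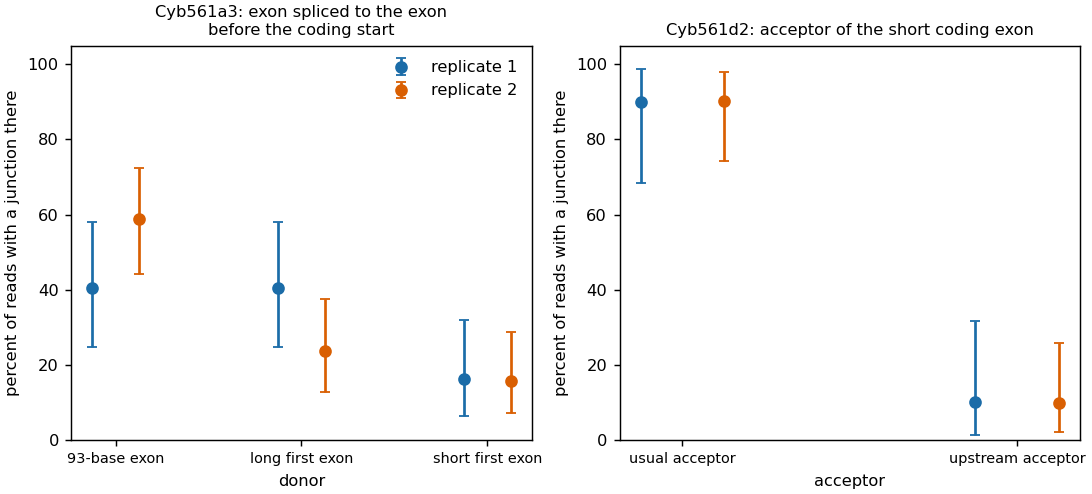
Splice choices of Cyb561a3 (left, exon joined to the exon before the coding start) and Cyb561d2 (right, acceptor of the short coding exon), in percent of reads with a junction there, with points for the libraries and bars for 95% Clopper-Pearson intervals. For Cyb561a3 the 93-base exon supplied 40.5% and 58.8%, and for Cyb561d2 the acceptor of Cyb561d2-204 had 10% and 9.68%.

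Cyb561d1 gave too few reads to describe its isoform use. In replicate 1 its 8 reads were 4 of Cyb561d1-202, 1 of Cyb561d1-203, 1 of an NNC model and 2 genomic. In replicate 2 its 7 reads were 1 of Cyb561d1-202, 1 of Cyb561d1-203 and 5 genomic. The leading form differed between the libraries. Cyb561d1-202 led in replicate 1 with 50% (15.7 to 84.3), and genomic models in replicate 2 with 71.4% (29.0 to 96.3). The genomic share of replicate 1 was 25.0% (3.19 to 65.1), and the intervals overlapped. The genomic models were 2503 bases long in replicate 1 and 5064 in replicate 2. Cyb561d1-203 encodes 229 codons (CCDS38598.1), and Cyb561d1-202 starts further downstream and encodes 171 (CCDS38599.1). Each full region was held by few reads, the longer by 1 in each library and the shorter by 5 and 1.

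Genes that share the pathway were measured for context, from lists chosen with earlier results of these libraries known. Of the 2 other genes with a cytochrome b561 domain, the ferric reductase gene Frrs1 had 9 and 24 reads (12.0 and 19.8 CPM, adjusted p = 0.352 by Fisher's exact test) and Cybrd1, the duodenal ferric reductase, had 0 in both libraries. Of 7 genes of the ascorbate-using enzymes and catecholamine granules, 5 were lower in replicate 2, 1 was higher and 1 was not called, beside 25.3% lower and 36.8% called in all over the genes tested. The median log2 ratio of the 7 was -0.75, beside -0.34 over all genes. With TMM factors 3 of the 7 were lower (Dbh, Pam and Th) and 1 was higher. By that scaling 1563 of the 11382 genes tested were lower and 2015 higher. The ascorbate-using enzyme Dbh had 199 and 80.9 CPM, and Pam had 267 and 159 CPM. Th, which begins catecholamine synthesis, had 1675 and 944 CPM. Ddc, the decarboxylase that follows Th, was the gene higher in replicate 2, with 9.30 and 29.7 CPM.

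Of 11 genes of ascorbate supply and recycling 10 were tested, and 4 were higher in replicate 2, 4 lower and 2 not called. Over all genes tested 36.8% were called and 25.3% were lower. The median log2 ratio of the list was -0.21, beside -0.34 over all genes. With TMM factors the median of the list was 0.14, with 4 higher, 3 lower and 3 not called. Over all genes tested the TMM median was 0.01, with 2015 of 11382 higher and 1563 lower. Gulo, the last enzyme of ascorbate synthesis, had 33.2 CPM in replicate 1 and 377 CPM in replicate 2. Rgn, which acts a step earlier, had 0 and 348 reads. Both are known from the liver, whose markers were high in the same library, and the part of liver RNA in the difference was not tested. In replicate 1 Gulo had 25 reads, and their source was not tested. Of the liver markers in that library, Alb and Serpina3k had 2 reads each, and Ttr, Apoa1, Ahsg and Fgb had 0. The ascorbate transporter gene Slc23a2 was lower in replicate 2, at 31.9 and 10.7 CPM, as was the reductase gene Cyb5r3 at 738 and 199 CPM. Of 7 genes of iron uptake and ferric reduction, 4 were lower, 1 was higher and 2 were not called, with a median log2 ratio of -1.36. Over all genes tested, 25.3% were lower, 36.8% were called and the median was -0.34. With TMM factors 1 of the 7 was lower (Slc11a2) and 1 higher, beside the TMM counts over all genes given above. The iron transporter gene Slc11a2 had 108 and 23.1 CPM. The iron exporter gene Slc40a1 was the higher one, at 31.9 and 122 CPM.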

How the data were processed

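Reads per transcript model are counts that the authors deposited for each library, not normalised, with a matching transcript annotation. Per the file headers, models were built on mm10 with GENCODE M21. Neither headers nor labels name the aligner. Between libraries, chains were taken as equal where strand and all introns were, single-exon models being pooled by class. CPM used reads in annotated mouse genes (94.8% and 93.8% of all reads), without 11168 and 17307 spike-in reads. Genes with at least 10 reads over both libraries were compared by two-sided Fisher's exact test, and leading chain shares where each library had at least 20 reads, called at an adjusted p (Benjamini-Hochberg) under 0.05. For log2 ratios 0.5 reads were added. These tests compare 2 libraries and were tested on simulated data. Alternatives were TMM (edgeR 4.0.16) and DESeq2 scaling, other read minimums, classes left out, thinning, splice sites matched within 5 bp and leaving out a library. The named chains are annotated transcripts with a read and other spliced chains with at least 2 reads. The members and lists were chosen with earlier results of these data known. Protein sequences were not used here.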

Additional observations from a re-analysis of the deposited data

How the results depend on the processing

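The log2 ratio of Cyb561 kept its sign under all 7 alternatives but was no longer past the threshold with TMM factors (-0.21), DESeq2 size factors (-0.15) or totals without genes over 10-fold different (-0.20). Known transcripts alone gave -0.95 for Cyb561 and -0.61 for Cyb561a3, against -0.55 and -0.11. Cyb561a3 turned positive under the same 3 (0.24, 0.30 and 0.25) and when the deeper library was thinned (0.22), and Cyb561d2 under the same 3 (0.21, 0.27 and 0.22). These scalings shift all ratios alike. The share of the leading NIC chain of Cyb561 was 53.1% over both libraries, 57.6% without genomic reads and 55.4% without ISM reads, which leave fewer reads in the total. Leaving out a library gave 52.7% to 53.5%. Calls in leading chain share numbered 712, and 310 without ISM reads. Calls in level split into 1307 higher and 2876 lower in replicate 2, and with TMM factors into 2015 and 1563. Depth limited Cyb561d1 most, with 8 and 7 reads, and it gave no value for known transcripts alone or without genomic reads, where too few were left. No paired analysis was possible because the libraries form 1 group.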
